A study of Mus musculus with 2 samples.

Results

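The genes described here are 10 structural components of the cartilage extracellular matrix, chosen by symbol from the 32285 genes of the count table: Col2a1, Col9a1, Col9a2, Col9a3, Col11a1, Col11a2, Acan, Matn1, Matn4 and Hapln1. All 10 were found in the table. They were measured by droplet single cell RNA sequencing, with reads taken from the 3′ end of transcripts, in tdTomato-positive (tdT+) cells sorted from mouse embryos at E14 after the heads and viscera had been removed. There are 2 libraries. The first is titled SRSF2f/f/Myf5-Cre/tdT and is called f/f here. The other, f/w, has the title SRSF2f/w/Myf5-Cre/tdT. Each genotype is a single library, so no difference between them has a replicate check. Both carry Myf5-Cre, a recombinase driven by a myogenic gene that is also active in some other lineages, and a tdTomato reporter that records cells with a history of Cre activity. The f/f embryos carry 2 floxed alleles of Srsf2, a splicing factor gene, and the f/w embryos carry 1 floxed and 1 wild type allele. How many embryos were pooled in each library is not given in the sources used here.

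Before the results, the labels have to be qualified. Srsf2 was at 219 CPM (UMIs of a gene over all UMIs of the same cells, as counts per 1000000) in the library labelled f/f (95% Poisson interval 217 to 221) and at 153 CPM in the library labelled f/w (151 to 155), which goes against the titles. The deleted part of Srsf2 is not named in the sources used here, and 3′ reads need not fall in it. The values cover all cells kept by the filters below, and the mix of cell types differs between the libraries. Exons of Srsf2 also overlap those of Mettl23 and Mfsd11 on the opposite strand. The muscle genes also differed: Myog, a muscle differentiation factor, was at 138 CPM in the library labelled f/f and at 13.3 CPM in the library labelled f/w. The names of the sequencing summaries give the genotypes the other way round from the titles. The libraries are therefore called by their titles only, as labelled, and no direction between genotypes is drawn. Filters on depth and mitochondrial content kept 12523 of 15268 barcodes in the library labelled f/f, with a median of 10751 UMIs (unique molecular identifiers, 1 per captured transcript), and 10345 of 12498 in the library labelled f/w, with a median of 9480. The libraries shared 74 barcode sequences. The 10 genes made up 0.651% and 0.711% of all UMIs. Intervals throughout are 95% intervals and cover counting error only, not the spread between embryos. Those on summed UMIs and their ratios also leave out the spread between cells, so they are narrow for comparing groups of cells.

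Cartilage matrix is a network of thin heterotypic collagen fibrils that holds highly hydrated proteoglycan aggregates. Col2a1 encodes the chain of type II collagen, the main fibril collagen of cartilage, Col11a1 and Col11a2 encode chains of type XI collagen, which sits inside the same fibrils and limits their diameter, and Col9a1, Col9a2 and Col9a3 encode the chains of type IX collagen, which decorates the fibril surface. Acan encodes aggrecan, the large chondroitin sulfate proteoglycan, Hapln1 encodes the link protein that locks aggrecan onto hyaluronan, and Matn1 and Matn4 encode matrilins, adaptor proteins that connect fibrils with proteoglycans. In the growing skeleton, chondrocytes proliferate, then leave the cell cycle and enlarge, with Ihh and Col10a1 marking that passage and Gdf5 and Prg4 marking the joint surfaces.

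The genes lie on 8 chromosomes in the GENCODE M21 annotation of GRCm38. Col2a1 spans chr15:97975602-98004695 on the minus strand. The type IX genes span chr1:24177610-24252684 (Col9a1), chr4:121039385-121055322 (Col9a2) and chr2:180597790-180622189 (Col9a3), all on the plus strand. Col11a1 spans chr3:114030540-114220718 and Col11a2 chr17:34039437-34066685, both on the plus strand. Acan lies at chr7:79053483-79115099, Matn1 at chr4:130944385-130955475 and Hapln1 at chr13:89539796-89611652, on the plus strand, and Matn4 lies at chr2:164389393-164405160 on the minus strand. Exons of Col9a3 overlap exons of Tcfl5 on the opposite strand, and exons of Matn4 overlap those of Rbpjl. Tcfl5 and Rbpjl were at 1.79 to 2.27 CPM in the chondrocyte class described below, against 390.5 to 2663 CPM for Matn4 and Col9a3, and the use of strand in counting is not stated.

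RefSeq start windows were given for 8 of the 10 genes, with 10 start sites between them, and none for Col2a1 and Col9a3. The 250 bases before the RefSeq start, which for Col11a2 lies upstream of the GENCODE start, are shown for the gene with the lowest share of its UMIs in the cartilage classes (Col11a1), for its partner chain (Col11a2) and for the gene with the lowest level in Chon-like cells without Snorc and Cnmd UMIs relative to the rest (Matn1), all described below. They are written 5′ to 3′ in the direction of transcription, from GRCm38.p6, at chr3:114030290-114030539, chr17:34038888-34039137 and chr4:130944135-130944384, all on the plus strand. Capitals mark matches to GGGCGG, a GC box, and to TATAAA, on either strand.
Col11a1: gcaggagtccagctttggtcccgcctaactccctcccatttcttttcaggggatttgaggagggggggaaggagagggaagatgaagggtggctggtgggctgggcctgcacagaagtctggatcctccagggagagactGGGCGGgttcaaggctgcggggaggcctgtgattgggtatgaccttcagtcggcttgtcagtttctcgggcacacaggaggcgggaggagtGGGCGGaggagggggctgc
Col11a2: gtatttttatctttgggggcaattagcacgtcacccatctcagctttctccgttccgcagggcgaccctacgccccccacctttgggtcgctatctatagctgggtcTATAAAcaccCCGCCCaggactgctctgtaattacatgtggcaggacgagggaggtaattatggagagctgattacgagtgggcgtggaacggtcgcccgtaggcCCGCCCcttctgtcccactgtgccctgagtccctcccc
Matn1: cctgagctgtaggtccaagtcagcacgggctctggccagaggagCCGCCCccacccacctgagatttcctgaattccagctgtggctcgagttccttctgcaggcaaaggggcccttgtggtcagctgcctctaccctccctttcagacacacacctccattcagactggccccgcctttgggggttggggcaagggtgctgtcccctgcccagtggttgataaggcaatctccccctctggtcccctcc
GGGCGG or its reverse CCGCCC was found in 6 of the 10 windows, against 32.7% of all 32851 windows of this length, in 2 places each for Col11a1 and Col11a2 and in 1 place for Matn1. The TATAAA of Col11a2 starts 143 bases before the annotated start and was the only one in the 10 windows, against 12.4% of all windows. The letters ACAAAG and ACAATG, which SOX family factors bind, were in none of the 10 windows on either strand, against 16.5% and 10.7% of all windows. The GC content of the windows ran from 43.6% to 74.4%, with a median of 52.4% over all windows.

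Cells were assigned to classes by fixed limits on marker UMIs, at least 4 UMIs from at least 2 genes of a class, and none of the 10 genes was a marker. The osteoblast-like, tendon-like and pericyte-like classes kept cells that also passed the mesenchymal list, and the osteoblast-like class required an Sp7 UMI. Chondrocyte-like (Chon-like) cells were those that passed Sox9, Cnmd, Snorc, Chad, Cytl1 and Mia and no other class. There were 1656 Chon-like cells in the library labelled f/f and 1766 in the library labelled f/w, with medians of 9516 and 8647 UMIs. A further 1423 and 1287 cells passed both the chondrocyte and the mesenchymal list (Chon/Mesen), with medians of 13634 and 12784 UMIs. All 6 chondrocyte markers were highest in Chon-like cells in both libraries when the single classes were compared, whereas 5 and 4 of the 6 mesenchymal markers were highest in their own class. The classes were set by the same genes, so these orders are largely fixed by the class limits. No doublet caller was used, and the part of doublets in the Chon/Mesen cells was not tested.

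All 10 genes were concentrated in these cells. Chon-like and Chon/Mesen cells together held 83.0% of the UMIs of the 10 genes in the library labelled f/f and 79.4% in the library labelled f/w, against 25.4% and 28.8% of all UMIs. Cells set aside because they passed other combinations of classes held another 12.4% and 16.5%. All named classes outside cartilage held 3.66% and 2.81%. No cell that passed the chondrocyte list could stay in these classes, so their low share is partly set by the class rule. By gene, the share in Chon-like and Chon/Mesen cells was lowest for Col11a1, at 77.3% and 76.3%, and in the library labelled f/f highest for Matn1 and Col9a3, at 85.2%. Against all other kept cells, 10 of 10 genes were at least 1.5-fold higher in Chon-like cells of each library, where 7.70% and 6.15% of all genes were (13022 and 13025 genes with at least 200 UMIs in the cells compared).

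Of the fibril collagens, Col2a1 was at 7611 CPM in Chon-like cells of the library labelled f/f (7570 to 7652) and at 6038 CPM in the library labelled f/w (6001 to 6076). In skeletal muscle-like (SKM-like) cells it was at 110 and 88.9 CPM, and in endothelial-like (Endo-like) cells at 126 and 98.7 CPM. Across the 11 other classes with at least 31 cells in each library, Col2a1 was at 1.45% to 3.65% of its Chon-like level. Thinned to 2000 UMIs per cell, 81.9% and 79.9% of Chon-like cells had a Col2a1 UMI, and so did 20.7% and 15.5% of SKM-like cells, whose median depth before thinning was 14185 and 15004 UMIs. Without thinning, 94.8% and 94.1% of Chon-like cells and 76.8% and 73.8% of SKM-like cells had one. A single Col2a1 UMI was thus also common in cells of another class, and the level set the classes apart. The other classes hold no cell that passed the chondrocyte list, so this distance in level is partly set by the class rule.

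The type IX chains followed. Col9a1 was at 1728 and 1502 CPM in Chon-like cells (libraries labelled f/f and f/w), Col9a2 at 1105 and 1032 CPM, and Col9a3 at 2663 and 2615 CPM. In SKM-like cells the same genes were at 30.2 and 33.3, 18.6 and 13.3, and 36.9 and 33.9 CPM. Each was thus at or below 2.22% of its Chon-like level in muscle.

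The type XI chains were at 3992 and 3554 CPM (Col11a1) and 802 and 653 CPM (Col11a2) in Chon-like cells. The proteoglycan side of the matrix was at 1149 and 918 CPM for Acan and 1166 and 1071 CPM for Hapln1. Matn1 was at 638 and 670 CPM and Matn4 at 413 and 390.5 CPM. Matn1 was the only one of the 10 that was lower in the library labelled f/f, but its log2 ratio of -0.07 between the libraries became 0.017 with cells thinned to 2000 UMIs and 0.27 in cycling cells alone.

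Chon/Mesen cells carried the same matrix. In the library labelled f/f, Col2a1 was at 7789 CPM in Chon/Mesen and 7611 CPM in Chon-like cells, and in the library labelled f/w at 7044 and 6038 CPM. None of the 10 genes differed by 1.5-fold between these classes in either library, where 3.02% and 2.41% of all genes were higher and 0.290% and 0.514% lower. Matn4 was the gene that was lower in Chon/Mesen cells of both libraries, at 346 against 413 CPM and 353 against 390.5 CPM.

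**Figure D1:**
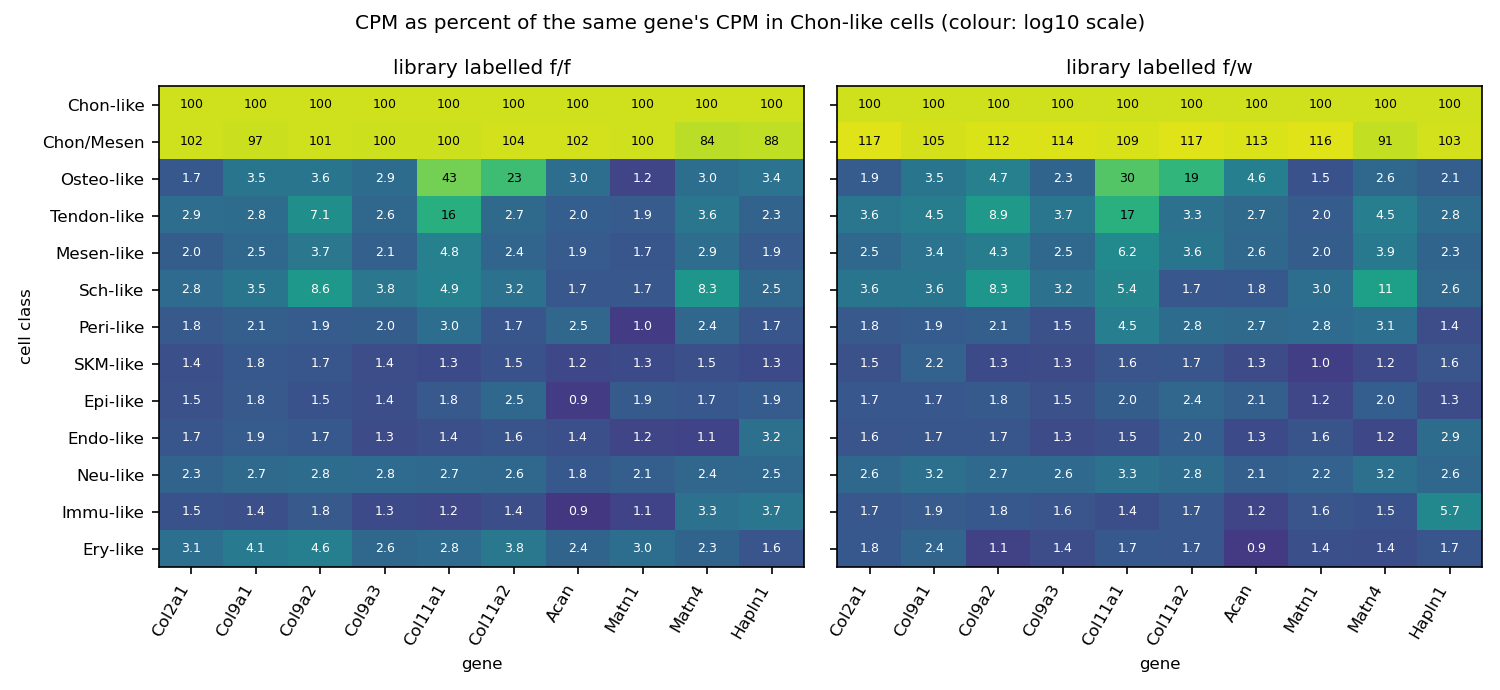
Level of each gene (columns) in each cell class (rows) as percent of that gene's CPM in Chon-like cells, for the libraries labelled f/f (left) and f/w (right), with colour on a log10 scale. Chon/Mesen cells stay within 1.5-fold of the Chon-like level, and most other classes lie at a few percent, the main exceptions being Col11a1 and Col11a2 in Osteo-like cells and Col11a1 in Tendon-like cells.

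Free RNA from lysed chondrocytes would bring the 10 genes into other cells in the ratio they have in the lysed cells. The UMIs of each gene per Col2a1 UMI were therefore set against the same ratio in Chon-like cells of the same library, for 9 genes in 11 classes. Of these 99 pairs of class and gene, 9 were at least 2-fold above the Chon-like ratio in both libraries with an interval above 1, and 11 were at least 2-fold above it in each library taken alone. Within 2-fold of it lay 88 and 86 pairs. With cells thinned to 2000 UMIs, 4 of the 9 stayed past the limit in both libraries, Col11a1 in Osteo-like, Tendon-like and Mesen-like cells and Col11a2 in Osteo-like cells. The other 5 were Col9a2 in Osteo-like, Tendon-like and Sch-like cells, Matn4 in Sch-like cells and Hapln1 in Immu-like cells. They did not pass in at least 1 library, and had 3 to 62 UMIs per library. The ratio also differed among Chon-like cells. In those without Snorc and Cnmd UMIs, Col11a1 was at 765 and 649 CPM and Col2a1 at 640 and 635 CPM. In all Chon-like cells they were at 3992 and 3554 CPM and at 7611 and 6038 CPM. Relative to Col2a1, Matn1 was lower there, at 15.5 and 17.9 CPM against 638 and 670 CPM. Which Chon-like cells free RNA came from was not tested. The effect on these ratios of leaving cells that passed the chondrocyte list out of the other classes was not tested either.

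Type XI collagen stood out in osteoblast-like (Osteo-like) cells, which were named by a fixed list that includes Sp7, Runx2, Dlx5, Alpl and Ibsp. These were few, 52 and 31 cells. Col11a1 was at 1730 CPM there in the library labelled f/f (1641 to 1822) and at 1069 CPM in the library labelled f/w (980 to 1165), which is 43.3% and 30.1% of its Chon-like level. Col11a2 was at 186 CPM (158 to 218) and 124 CPM (94.8 to 159), or 23.2% and 19.0% of its Chon-like level. In the same cells Col2a1 was at 1.74% and 1.92%. The ratio to Col2a1 was 24.9-fold (20.5 to 30.6) and 15.7-fold (11.9 to 21) above that of Chon-like cells for Col11a1, and 13.4-fold and 9.89-fold above it for Col11a2. Col9a2 also passed in these cells, at 39.2 and 48.8 CPM and 2.04-fold (1.33 to 3.05) and 2.46-fold (1.46 to 4.03), on 32 and 24 UMIs. It was not alone. Col9a1 was at 2.04-fold (1.43 to 2.88) and 1.83-fold (1.11 to 2.96), and Acan at 1.72-fold (1.09 to 2.62) and 2.42-fold (1.40 to 4.06). Only Matn1 lay below the Chon-like ratio, at 0.66-fold (0.24 to 1.49) and 0.79-fold (0.25 to 1.95). It had 6 and 5 UMIs, and both intervals include 1. All these ratios rest on 108 and 57 Col2a1 UMIs. At 2000 UMIs, 71.2% and 54.8% of Osteo-like cells had a Col11a1 UMI, against 10.6% and 7.77% of SKM-like cells.

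Tendon-like cells, named by Scx, Tnmd, Mkx, Kera and Thbs4, held Col11a1 above the Chon-like ratio, but not Col11a2. Col11a1 was at 633 CPM (609 to 658) and 588 CPM (555 to 623) in 407 and 186 cells, and its ratio to Col2a1 was 5.48-fold and 4.54-fold that of Chon-like cells. For Col11a2 the ratio was 0.93-fold and 0.91-fold, at 21.6 CPM in both libraries. Col9a2 was at 78.1 and 92.0 CPM and its ratio at 2.44-fold in the library labelled f/f and 2.45-fold in the library labelled f/w. The other type IX chains did not share this: Col9a1 was at 0.97-fold and 1.22-fold and Col9a3 at 0.90-fold and 1.0-fold.

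Mesenchyme-like (Mesen-like) cells, named by Pdgfra, Dcn, Lum, Twist2, Dpt and Osr1, had Col11a1 at 191 and 222 CPM, 2.39-fold and 2.47-fold above the Chon-like ratio. Col9a2 stayed under the limit there, at 1.85-fold (1.73 to 1.98) and 1.69-fold (1.55 to 1.85), and so did Matn4, at 1.46-fold and 1.57-fold, all with intervals above 1. Acan and Hapln1 lay between 0.92-fold and 1.02-fold, and Matn1 at 0.84-fold and 0.79-fold.

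Schwann-like (Sch-like) cells, 112 and 101 in number and named by a fixed list that includes Cdh19, Sox10, Foxd3 and Erbb3, held Col9a2 at 95.05 and 85.8 CPM, 3.07-fold and 2.32-fold above the Chon-like ratio. They also held Matn4 at 34.1 CPM (22.7 to 49.3) and 41.0 CPM (28.2 to 57.6), 2.95-fold and 2.93-fold above it, on 28 and 33 UMIs in all.

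Immune-like (Immu-like) cells held Hapln1 at 42.6 CPM (32.5 to 54.8) and 61.3 CPM (55.8 to 67.2), 2.39-fold and 3.39-fold above the Chon-like ratio. Endo-like cells were just inside the limit for the same gene, at 1.92-fold and 1.75-fold. Immune and endothelial cells rested on 102 and 521 and on 327 and 810 cells in the libraries labelled f/f and f/w. No value for Matn1 was above 2-fold in any class of either library.

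**Figure D2:**
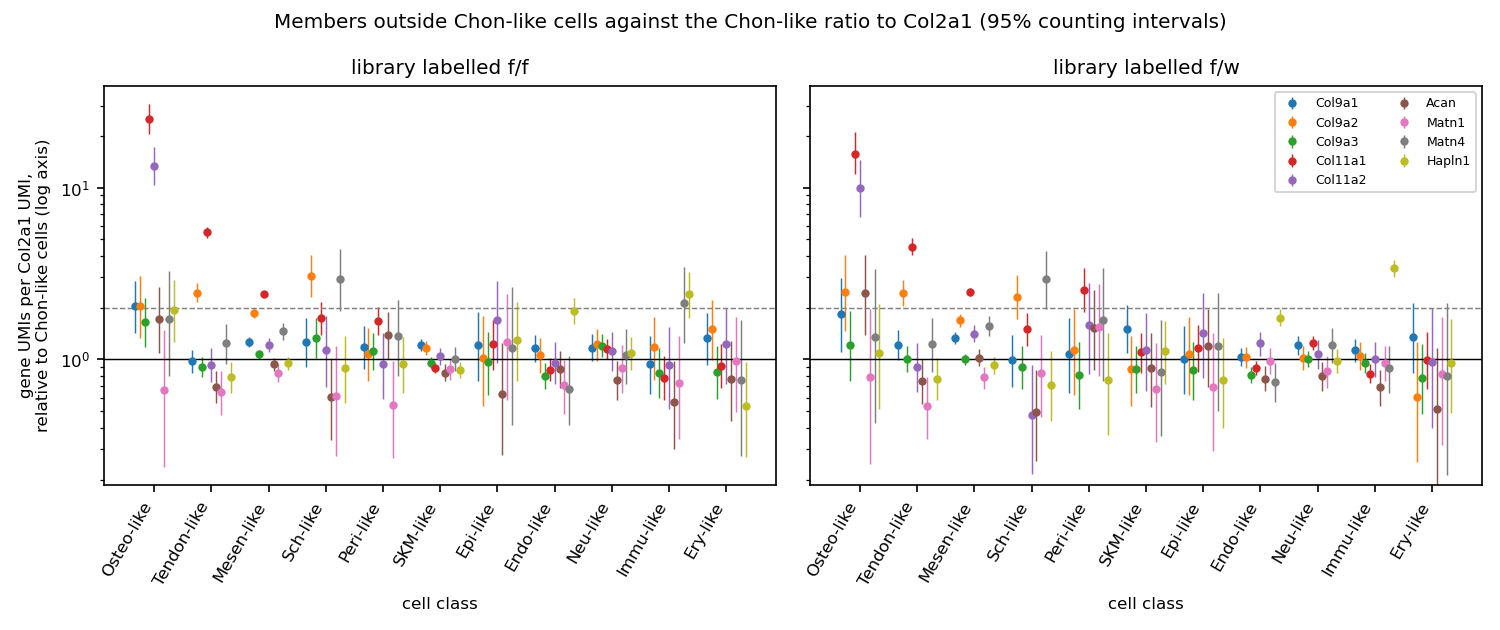
UMIs of 9 genes per Col2a1 UMI in 11 cell classes, relative to the same ratio in Chon-like cells, on a log axis, with 95% counting intervals, for the libraries labelled f/f (left) and f/w (right); the solid line is the Chon-like ratio and the dashed line 2 times it. Col11a1 and Col11a2 in Osteo-like cells and Col11a1 in Tendon-like cells lie farthest above the line in both libraries.

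Within Chon-like cells the genes were far from uniform. Per 10000 UMIs of a cell, Col2a1 had a 10th percentile of 1.43 UMIs, a median of 51.4 and a 90th percentile of 160 in the library labelled f/f, and 1.5, 26.8 and 148 in the library labelled f/w. Matn1 had a median of 0.848 and 0 and a 90th percentile of 18.5 and 21. With cells thinned to 2000 UMIs, at least 5 of the 10 genes were seen in 66.6% of 1604 cells and 61.6% of 1678 cells, all 10 in 19.0% and 13.1%, and none in 3.93% and 3.28%.

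The spread followed Snorc and Cnmd, a pair of cartilage matrix genes outside the 10 that belong to the class markers. The limits on their UMIs were chosen after the data were seen and are a description. Chon-like cells with at least 4 UMIs of the pair numbered 947 and 872, those with 1 to 3 UMIs 470 and 611, and those with none 239 and 283. Median depths were 11605, 7428 and 7002 UMIs in the library labelled f/f and 10614, 6896 and 7447 in the library labelled f/w, so depth moves with these groups too, and its part was not tested. Col2a1 was at 10915, 1159 and 640 CPM in the library labelled f/f, from the richest to the poorest group. In the library labelled f/w it was at 9380, 1356 and 635 CPM. Col1a1, the type I collagen gene of non-cartilage connective tissue, ran the other way, at 274, 1637 and 2267 CPM and at 258, 1422 and 1663 CPM. Pdgfra, a mesenchymal class marker, was also higher in the poorer groups, at 10.9, 58.5 and 60.8 CPM and at 14.4, 78.2 and 77.4 CPM. Whether the cells of the poorer groups are chondrocytes was not tested. Of the class markers Sox9 and Mia, Sox9 stood at 74.1% and 82.9% of its level in the richest group in cells without Snorc and Cnmd UMIs, and Mia at 27.1% and 23.5%. These cells could enter the class only through the other markers, Sox9 and Mia among them, so these 2 levels are partly set by the class limits.

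The 10 genes differed in how much of their level the Snorc- and Cnmd-negative cells kept. Matn1 was at 15.5 and 17.9 CPM in these cells, 1.64% (1.11% to 2.35%) and 1.64% (1.17% to 2.22%) of its level in the richest group. In the 11 named classes outside cartilage Matn1 was at 6.14 to 19.2 CPM and at 6.65 to 19.9 CPM. Hapln1 followed at 4.96% and 4.31%, then Col11a2 at 4.98% and 5.59% and Col2a1 at 5.87% and 6.77%. Acan and Col9a3 were at 8.99% and 8.21% and at 8.68% and 9.36%. Col9a1, Col9a2 and Col11a1 kept 10.1% to 13.8%. Matn4 kept most in the library labelled f/w, at 21.1% (18.6% to 23.9%), and in the library labelled f/f, at 13.8% (11.6% to 16.2%), its interval overlapped that of Col11a1. At 1 to 3 UMIs of the pair the ends of the order were the same, with Matn1 lowest at 4.40% and 5.21% and Matn4 highest at 27.9% and 35.7%.

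**Figure D3:**
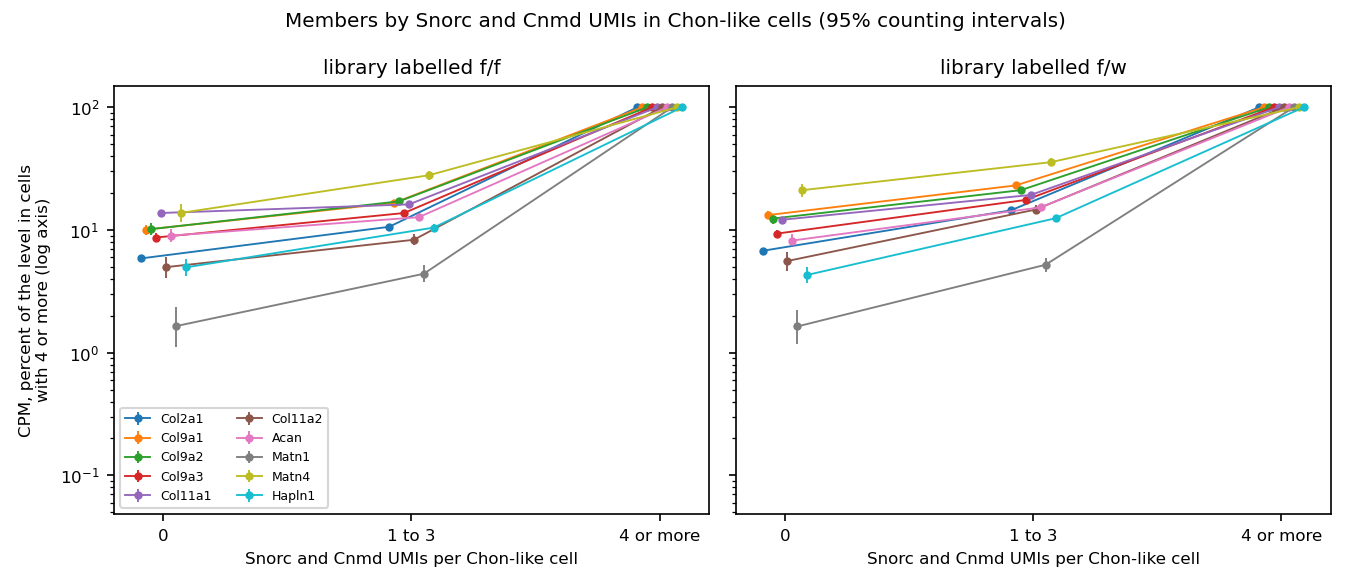
CPM of each of the 10 genes in Chon-like cells with 0, 1 to 3 and 4 or more UMIs of Snorc and Cnmd, as percent of the level in cells with 4 or more, on a log axis with 95% counting intervals, for the libraries labelled f/f (left) and f/w (right). Matn1 is lowest in the cells with none, at 1.64% in both libraries, and Matn4 is highest in cells with 1 to 3.

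Cells that hold UMIs of the later growth plate genes Ihh and Col10a1 carried more matrix transcript. With at least 2 UMIs of this pair, 136 and 117 Chon-like cells were compared with the other 1520 and 1649. Hapln1 was at 2894 against 918 CPM in the library labelled f/f and at 3202 against 811 CPM in the library labelled f/w, log2 ratios of 1.66 (1.61 to 1.70) and 1.98 (1.94 to 2.03). Matn1 was at 1367 against 534 CPM and at 1753 against 538 CPM, log2 ratios of 1.36 and 1.70. For Col2a1 the levels were 13622 against 6749 CPM and 13146 against 5173 CPM. Matn4 was the exception, at 424 against 411 CPM and 439 against 385 CPM, log2 ratios of 0.04 and 0.19. In each library 9 of 10 genes were at least 1.5-fold higher, with a median log2 ratio of 1.02 and 1.36, where 6.56% and 7.60% of all genes were higher and the median over all genes was -0.19 and -0.24. These cells were deeper, with medians of 15706 and 15397 UMIs against 9133 and 8378, and the part of depth was not tested. The cells they were compared with include Chon-like cells with few or no Snorc and Cnmd UMIs. Col2a1 was at 635 to 1356 CPM in Chon-like cells with under 4 UMIs of Snorc and Cnmd. In those with 4 or more it was at 10915 and 9380 CPM. The part of this make-up in the ratios was not tested.

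Cells with at least 2 UMIs of the joint genes Gdf5 and Prg4, 88 and 81 in number, stood close to the rest. Matn1 was lower in both libraries, at 430 against 651 CPM and 426 against 683 CPM, log2 ratios of -0.60 (-0.74 to -0.46) and -0.68 (-0.83 to -0.53). It was the only one of the 10 that was 1.5-fold lower, where 5.49% and 9.80% of all genes were. A count of 1 in 10 is thus close to the share over all genes. Matn4 came next at -0.47 and -0.54. Col2a1 was at 7505 against 7617 CPM and 6189 against 6030 CPM.

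The matrix genes were then compared between cycling and non-cycling Chon-like cells. Cycling Chon-like cells had at least 3 UMIs of Mki67 and Top2a, a pair of genes expressed in dividing cells, and non-cycling cells at most 2. There were 257 cycling cells in the library labelled f/f, 15.5% (13.8% to 17.4%), and 165 in the library labelled f/w, 9.34% (8.03% to 10.8%). Thinned to 2000 UMIs, 18.9% and 11.3% of cells had a UMI of the pair. The cycling cells were deeper, with medians of 14326 against 8806 UMIs and 13667 against 8297.

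As a share of the UMIs summed over all cells of a state, each of the 10 genes was lower in cycling cells of both libraries. Deeper cells weigh more in these sums, and the share in each single cell was not compared between the states. Col11a1 was at 2880 CPM in cycling and 4311 CPM in non-cycling cells of the library labelled f/f, and at 2544 and 3720 CPM in the library labelled f/w. Its log2 ratios were -0.58 (-0.61 to -0.55) and -0.55 (-0.59 to -0.51). Hapln1 was at 830 against 1262 CPM and 777 against 1119 CPM, log2 ratios of -0.60 and -0.53. Col2a1 was at 5845 against 8118 CPM and 4787 against 6244 CPM, log2 ratios of -0.47 (-0.49 to -0.45) and -0.38 (-0.41 to -0.35). The type IX chains lay between -0.43 and -0.29 and Col11a2 at -0.47 and -0.40.

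Among the smallest differences in both libraries were those of Acan, at -0.29 (-0.34 to -0.24) and -0.19 (-0.26 to -0.12), and of Matn4, at -0.32 (-0.41 to -0.23) and -0.10 (-0.21 to 0.00069). For Matn4 in the library labelled f/w the interval reached 0. All 10 genes had a log2 ratio below 0 in each library, where 46.6% and 53.3% of all genes did, and the median of the 10 was -0.42 and -0.40 against 0.03 and -0.03 over all 7138 and 6867 genes. At a fold of 1.5 or more, 1 of the 10 was lower in each library, Hapln1 in the library labelled f/f and Matn1 in the library labelled f/w, and 5.07% and 5.72% of all genes were. In these sums the shift was thus common to the genes and small. The states also differed in make-up. Col10a1 was at 148 against 323 CPM in cycling and non-cycling cells of the library labelled f/f. In the library labelled f/w it was at 8.44 against 181 CPM. Cells with Ihh and Col10a1 UMIs held more of most of the 10 genes, and their part in the shift was not tested.

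Matn1 differed most between the libraries. It was at 544 against 665 CPM in cycling and non-cycling cells of the library labelled f/f, and at 451 against 706 CPM in the library labelled f/w, log2 ratios of -0.29 (-0.36 to -0.22) and -0.65 (-0.74 to -0.56). The difference of these ratios was 0.36 (0.24 to 0.47), with no replicate behind it. For the other 9 genes it ran from -0.22 to 0.02. Cycling cells of the libraries labelled f/f and f/w also differed in Col10a1, at 148 and 8.44 CPM. Matn1 was higher in cells with Ihh and Col10a1 UMIs, and the part of this make-up in its difference was not tested.

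In mean UMIs per cell the order was the other way round. Cycling cells held a mean of 251 UMIs of the 10 genes against 221 in non-cycling cells in the library labelled f/f, and 207 against 172 in the library labelled f/w. Col2a1 had a mean of 89.3 against 79.3 UMIs per cell and of 68.7 against 56.3. The median for Col2a1 was 34 against 39 UMIs in the library labelled f/f and 31 against 17 in the library labelled f/w, so the order in the first of these depends on whether the mean or the median is taken. The CPM ratio is a share of a total that was itself larger in cycling cells.

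Restricting the comparison to Chon-like cells with at least 4 UMIs of Snorc and Cnmd, an alternative chosen after the data were seen, left all 10 below 0 in both libraries, where 44.0% and 51.3% of all genes were. The median log2 ratio became -0.23 in the library labelled f/f and -0.45 in the library labelled f/w. In these cells Acan, Matn1 and Matn4 of the library labelled f/f were at -0.11, -0.11 and -0.10, and Matn1 of the library labelled f/w at -0.68. The shares of cycling cells did not order the groups clearly, at 15.5%, 16.4% and 13.8% in the library labelled f/f and 10.2%, 8.84% and 7.77% in the library labelled f/w, from 4 or more to no UMIs of the pair.

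**Figure D4:**
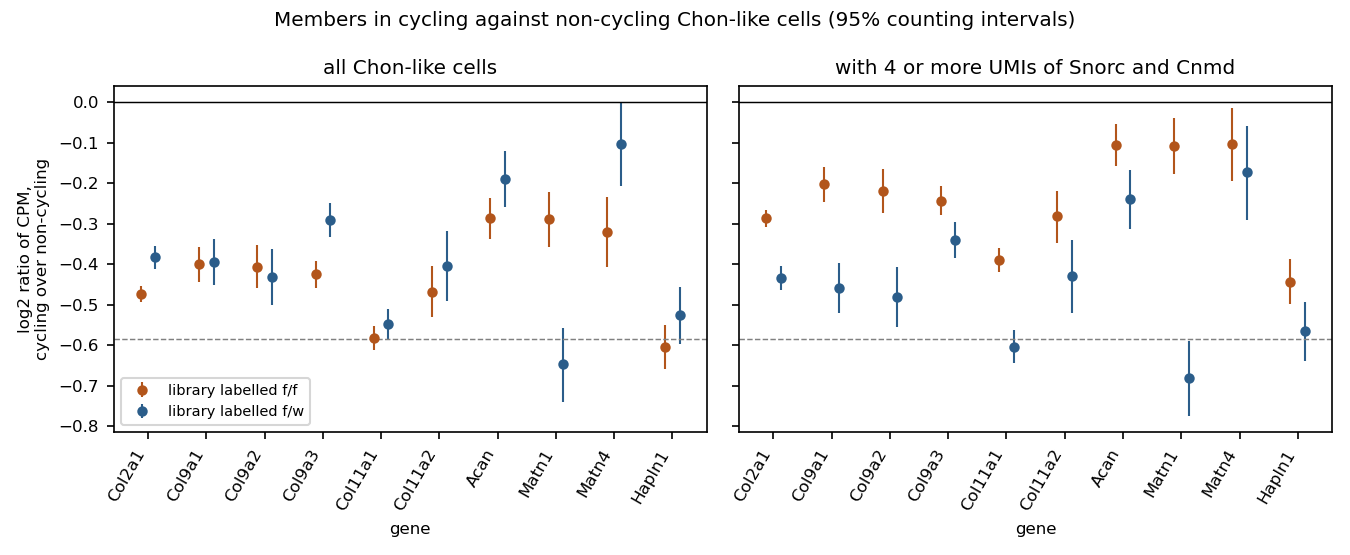
Log2 ratio of CPM in cycling over non-cycling cells for the 10 genes, with 95% counting intervals, in the libraries labelled f/f (orange) and f/w (blue), for Chon-like cells (left) and those with 4 or more UMIs of Snorc and Cnmd (right); the dashed line is 1.5-fold lower. All 10 points of each library lie below 0 in both panels, and Matn1 shows the widest gap between the libraries.

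The 2 libraries were close in the level of these genes. In Chon-like cells the log2 ratio of the library labelled f/f over the library labelled f/w was 0.33 (0.32 to 0.35) for Col2a1, 0.32 (0.29 to 0.35) for Acan and 0.30 (0.26 to 0.33) for Col11a2. It was 0.20 for Col9a1, 0.17 for Col11a1, 0.12 for Hapln1, 0.10 for Col9a2, 0.08 for Matn4 and 0.03 for Col9a3, and -0.07 (-0.11 to -0.03) for Matn1. None of the 10 reached 1.5-fold, where 1.88% of all 8891 genes were higher and 1.68% lower. The median of the 10 was 0.15, against 0.03 over all genes.

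The ratios were also taken in a narrower set of cells, chosen after the data were seen. Among Chon-like cells with at least 4 UMIs of Snorc and Cnmd, the median of the 10 was 0.04, the same as over all genes, and 6 of 10 genes were above 0, where 58.4% of all genes were. Col2a1 was at 10915 and 9380 CPM in these cells, a log2 ratio of 0.22. Matn1 was at 940 and 1095 CPM, -0.22 (-0.26 to -0.18), and Col9a3 at -0.08, both lower than in all Chon-like cells (-0.07 and 0.03). Median depth in this set was 11605 and 10614 UMIs, and the part of depth or of class make-up in these ratios was not tested. The share of Chon-like cells in this group was larger in the library labelled f/f, 947 of 1656 against 872 of 1766. Genotype, embryo and library preparation cannot be told apart in any of these values.

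**Figure D5:**
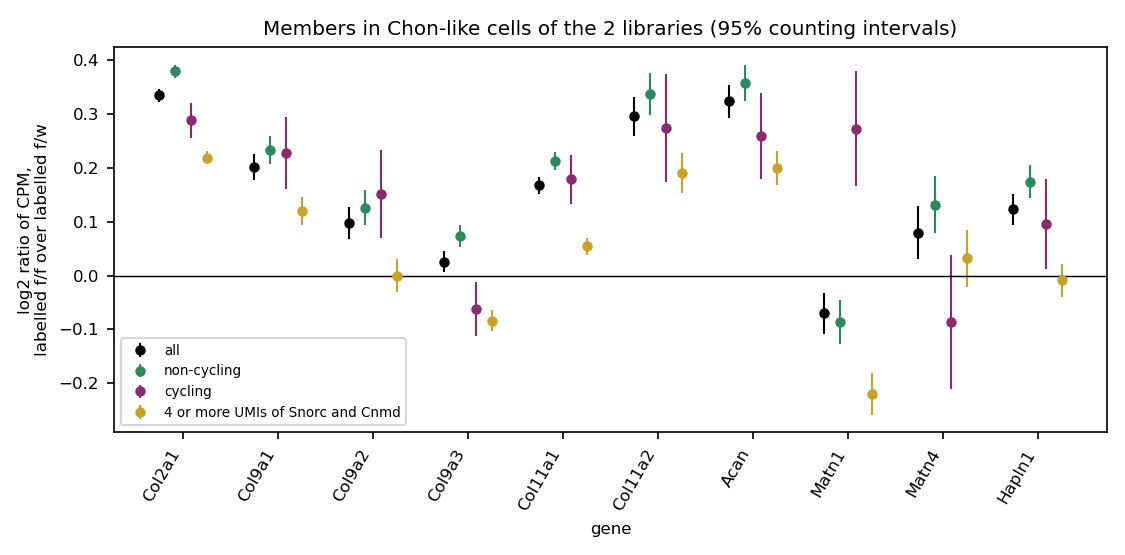
Log2 ratio of CPM in Chon-like cells, library labelled f/f over library labelled f/w, for the 10 genes, with 95% counting intervals, in all Chon-like cells, non-cycling cells, cycling cells and cells with 4 or more UMIs of Snorc and Cnmd. Most points lie between 0 and 0.38, Matn1 lies below 0 except in cycling cells, and the points of cells rich in Snorc and Cnmd lie nearer to 0 than those of all Chon-like cells except for Matn1 and Col9a3.

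Across single Chon-like cells thinned to 2000 UMIs the 10 genes varied together. Over the 45 pairs of genes, the median Pearson correlation of log2(UMIs per 10000 + 1) was 0.66 in 1604 cells of the library labelled f/f and 0.60 in 1678 cells of the library labelled f/w. These are descriptions across cells of 1 library each. Col2a1 and Col9a3 were the closest pair, at 0.82 and 0.78. Matn4 stood apart, with a median correlation with the other 9 genes of 0.42 and 0.39, against 0.59 to 0.73 and 0.58 to 0.68 for the others. It also had the lowest CPM of the 10 genes in Chon-like cells. At 2000 UMIs, 42.3% and 39.6% of Chon-like cells had a Matn4 UMI, against 37.2% and 33.3% for Matn1. The part of level in these correlations was not tested. Chon-like cells also mix the groups rich and poor in Snorc and Cnmd UMIs, which differ in all 10 genes. No correlation was taken within such a group, so the part of this mix was not tested either.

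Other genes showed the same distribution over classes. Correlated with the mean standardized log2(CPM + 1) profile of the 10 genes over 26 points, 13 classes in each library, the 5 most alike of 13651 genes were Comp, Epyc, Clec3a, Fam180a and Matn3, with r from 0.95 to 0.97. The 2 libraries share classes and free RNA, so these points are not independent. Comp, encoding cartilage oligomeric matrix protein, was at 376 and 323 CPM in Chon-like cells and Epyc, encoding the small proteoglycan epiphycan, at 328 and 290 CPM. Matn3, another cartilage matrilin, was at 179 and 151 CPM, and Clec3a at 2.05 and 2.56 CPM only. Of the 10 genes themselves, Col11a1 was least like the mean, with r of 0.90.

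Further genes of the matrix pathway were taken from fixed lists. In their ratios of Chon-like over other kept cells, the other cells again include the Chon/Mesen cells and those set aside. Among other cartilage matrix genes, 15 were measured in both libraries, of which Cnmd, Snorc and Chad are class markers. Of the other 12, 10 were at least 1.5-fold higher in Chon-like than in other kept cells in both, where 4.90% of all 12595 genes were higher and 17.7% lower. Comp was at log2 ratios of 2.35 and 1.84, and the marker Cnmd at 2.24 and 1.79, a level that the class definition favours. Matn2, a broadly expressed matrilin, was at -0.55 and -0.25 and Vcan, the proteoglycan of loose mesenchyme, at -0.79 and 0.11. Between cycling and non-cycling cells, 3 of 14 were lower in both libraries and none higher, where 2.22% of all 6761 genes were lower and 5.49% higher. Col10a1, of hypertrophic cartilage, was at -1.13 and -4.43, Comp at -1.53 and -1.11, and Chad at -0.85 and -0.64. Prelp and Vcan were at the other end, at 0.14 and 0.20 and at 0.44 and 0.39.

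Genes for collagen folding and cross-linking were also richer in Chon-like cells, 14 of 20 by 1.5-fold in both libraries. Loxl4 was at 2.29 and 1.997 and Loxl3 at 1.98 and 1.51. Lox, the lysyl oxidase of type I collagen tissues, was lower, at -1.10 and -1.02, and Loxl1 was at -0.35 and -0.20. In cycling cells 1 of 20 was lower, Loxl4, at -1.82 and -2.09, and P3h1 was at -0.48 and -0.20. The median of the list between cycling states was -0.20 and -0.02.

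Of 18 chondroitin sulfate synthesis genes, 9 were higher in Chon-like cells of both libraries. Papss2, which makes the sulfate donor, was at 1.959 and 1.54 and Xylt1, which starts the chain, at 1.92 and 1.39. At the low end were Xylt2, at -0.31 and -0.29, and Chst15, at -0.16 and -0.31. None of the 12 measured was 1.5-fold different between cycling states in both libraries, and their median was -0.24 and -0.15.

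Of 9 genes for secretion of large cargo, Creb3l2, a factor that raises secretory capacity in chondrocytes, was higher at 1.03 and 0.86, and its relative Creb3l1 was lower at -1.53 and -1.78. Sar1a was at 0.54 and 0.44. Of 7 matrix proteases, Mmp13 was higher, at 1.90 and 2.002, at only 4.04 and 10.8 CPM, and 3 were lower, Adamts4 at -1.88 and -1.54, Adamts5 at -1.99 and -1.29 and Mmp9 at -1.11 and -1.09. None of the 8 secretion genes and 3 proteases that reached 200 UMIs in both libraries differed 1.5-fold between cycling states in both. Of the 4 proteases under that limit, Mmp13 was at 0.764 against 4.98 CPM and 0.844 against 12.5 CPM in cycling and non-cycling cells. Its log2 ratios were -2.70 (-5.02 to -1.09) and -3.89 (-6.94 to -2.01). Mmp9 was at 0.51 against 2.34 CPM and 0.844 against 4.30 CPM. Its log2 ratios were -2.20 (-5.31 to -0.23) and -2.35 (-5.42 to -0.43). The cycling values rest on very few UMIs, and the intervals are wide.

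Of the chondrocyte transcription factors, 4 of the 8 that are not Chon-like markers were higher in Chon-like cells of both libraries. They were the Sox9 partners Sox5 at 2.04 and 1.89 and Sox6 at 1.77 and 1.73, Foxa2 at 1.88 and 1.66, and Foxa3 at 2.21 and 1.72. Runx2, a marker of the Osteo-like class, is among the 8. Sox9, a class marker, was at 1.99 and 1.84. In cycling cells Zbtb20 was lower, at -0.93 and -0.94, as 1 of 7. Sox9 was at -0.19 and -0.39, Sox5 at -0.23 and -0.0028 and Sox6 at -0.33 and 0.12.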

How the data were processed

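The deposited table holds UMI counts per gene and cell barcode, raw and not normalized, in 1 matrix for both libraries. The authors made it with Cell Ranger from Chromium 3′ v3.1 libraries: the matrix header and the study's methods name version 5.0.0, and the submitters' processing notes list Cell Ranger 3.1.0, STAR, Seurat 3.1.1 and the mouse build mm10. Reads were down-sampled when the libraries were joined, and the matrix precedes the study's quality filters. Barcode suffixes were mapped to libraries by their cell numbers in the sequencing summaries. Total depth was 156093779 UMIs (labelled f/f) and 128116615 UMIs (labelled f/w), with saturation of 39.5% and 45.9%.

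Cells more than 2 SD from their library mean in log10 UMIs or genes, or with more than 10% mitochondrial UMIs, were left out. The study's methods name the same 2 SD and 10% limits but take the mean over all cells and give no log scale, so the kept cells need not be the same. Doublets were not called, and cells passing several classes were set aside as mixed or Chon/Mesen, with the following exceptions. Osteo-like, Tendon-like and pericyte-like took precedence over Mesen-like, and Sch-like over neural progenitor-like. UMIs were summed per class and library and divided by the summed total (CPM). Levels carry exact Poisson intervals, shares Clopper-Pearson intervals, and ratios the exact interval of a split of counts. With 1 library per genotype there is no test, and a gene counts as higher or lower at 1.5-fold (genes with at least 200 UMIs in the cells compared). Scripts used Python 3.11.15, NumPy 2.4.6, SciPy 1.17.1, pandas 2.3.3 and matplotlib 3.10.9. The intervals were run on simulated Poisson counts with no spread between cells, which checks the computation only. The 10 genes and the lists were chosen with earlier results of these data known. The text names the 10 genes, Srsf2, the class markers, the 5 most alike genes and, from each list, genes past 1.5-fold in both libraries between cycling states, and the 2 highest and 2 lowest, of which some are given by count. Myog, Ihh, Gdf5, Col1a1, Tcfl5, Rbpjl, Mettl23 and Mfsd11 were named outside that rule, beside a result they bear on. Some markers of the Osteo-like and Sch-like classes are not reported here.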

Additional observations from a re-analysis of the deposited data

Results flagged for a closer look

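For 3 genes the ratio of the library labelled f/f over the library labelled f/w pointed one way in cycling Chon-like cells and the other way in non-cycling cells. Matn1 had a log2 ratio of 0.27 (0.17 to 0.38) in cycling cells and of -0.09 (-0.13 to -0.04) in non-cycling cells. Col9a3 was at -0.063 (-0.11 to -0.01) in cycling and 0.07 (0.05 to 0.09) in non-cycling cells. Matn4 was at -0.086 (-0.21 to 0.04) in cycling and 0.13 (0.08 to 0.18) in non-cycling cells. With 1 library per genotype these differences were not tested against the spread between embryos, and the intervals leave out the spread between cells. None of the values reached 1.5-fold. Col10a1 was at 148 and 8.44 CPM in cycling Chon-like cells of the libraries labelled f/f and f/w. The part of such make-up in the change of sign was not tested.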

How the results depend on the processing

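All 10 genes stayed below 0 between cycling and non-cycling Chon-like cells in both libraries under each of the 10 alternatives run for that comparison. The median log2 ratio of the 10 genes for the library labelled f/f (-0.42) became -0.32 at a class limit of 3 UMIs, -0.27 at a limit of 8 UMIs, -0.24 with cells thinned to 2000 UMIs, -0.49 over a denominator without the 10 genes, mitochondrial, ribosomal and haemoglobin genes, -0.47 with cycling set at 6 or more against 0 UMIs, -0.52 with cycling set by UMIs per 10000, and -0.23 with at least 4 UMIs of Snorc and Cnmd. For the library labelled f/w (-0.40) it became -0.32 with Chon/Mesen cells included.

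The UMIs of the 10 genes per 10000 UMIs of Chon-like cells, 213 and 184, became 209.6 and 181 with a mitochondrial limit of 5%, 206 and 175 at a class limit of 3, 254 and 222 at a limit of 8, 189 and 157 with thinned cells, 314 and 269 with the other denominator, and 301 and 282 with at least 4 UMIs of Snorc and Cnmd. With Chon/Mesen cells included the library labelled f/w stood at 196. The median log2 ratio of Chon-like over other cells, 2.26 and 1.80, became 2.11 and 1.73, 2.13 and 1.66, 2.98 and 2.47, 2.34 and 1.77, and 2.30 and 1.85 under the first 5 of these settings, and 3.95 and 3.29 with Chon/Mesen cells included.

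The median log2 ratio between the libraries, 0.15, became 0.18 at a class limit of 3, 0.23 with thinned cells, 0.059 with Chon/Mesen cells, 0.19 in non-cycling and 0.20 in cycling cells alone, and 0.043 with at least 4 UMIs of Snorc and Cnmd. Matn1 changed sign in thinned cells (0.017) and in cycling cells alone (0.27). Col9a3 changed sign with Chon/Mesen cells (-0.077), in cycling cells alone (-0.063) and with at least 4 UMIs of Snorc and Cnmd (-0.084). Matn4 did so in cycling cells alone (-0.086), and Col9a2 (-0.00032) and Hapln1 (-0.0092) with at least 4 UMIs of Snorc and Cnmd. The pairs of class and gene at least 2-fold above the Chon-like ratio to Col2a1 in both libraries, 9, became 4 with thinned cells, which hold fewer UMIs. They ran from 8 to 11 otherwise. Free RNA itself was not measured. With a pseudocount of 10 CPM, 3 of the 5 most alike genes were the same. The causes of the other changes were not tested. The alternative with 4 UMIs of Snorc and Cnmd was chosen after seeing the data.

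No paired analysis was possible because each group is 1 library and the labels give no replicate numbers, and for the same reason no replicate was left out. Osteo-like values rest on under 60 cells per library, and a level near the 1.45% to 3.65% that Col2a1 had in other classes cannot be told apart from free RNA.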

Other observations

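Cells set aside as mixed, 1532 and 1253 in the libraries labelled f/f and f/w, held Col2a1 at 1334 and 1646 CPM, between the Chon-like level and that of the other classes. Cells that passed no class, 1739 and 1803, held Col2a1 at 258 and 355 CPM and Col11a1 at 281 and 397 CPM. These cells were shallow, with medians of 5358 and 4562 UMIs. Erythroid-like cells held Col2a1 at 3.07% of the Chon-like level in the library labelled f/f (56 cells) and at 1.76% in the library labelled f/w (62 cells).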
